A study of Homo sapiens with 8 samples.

Results

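The genes described here are 10 genes of catecholamine synthesis, storage, re-uptake and breakdown, namely TH, DDC, DBH, GCH1, SLC18A1, SLC18A2, SLC6A2, CHGA, CHGB and MAOA. They were chosen by symbol and are 10 of the 58787 Ensembl gene identifiers in the deposited table of raw counts. The counts come from IMR32, an established human neuroblastoma line with amplified MYCN, which the labels give as wild type, with brain as tissue and neuroblast as cell type. Cells received either CR31B, a rocaglate that blocks the RNA helicase eIF4A, at its IC50 (the dose itself is not given in the sources used here), or the vehicle at 0.1% DMSO, and polyadenylated RNA was taken after 6 h. Each group has 4 libraries, which the series calls biological replicates of this 1 line. In both groups replicate 1 was sequenced paired-end and replicates 2, 3 and 4 single-end, so the pair with number 1 is shown apart from pairs 2 to 4 throughout.

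Catecholamines are made from tyrosine. Tyrosine hydroxylase (TH) makes L-DOPA and needs tetrahydrobiopterin (BH4), whose synthesis starts with GTP cyclohydrolase (GCH1); DOPA decarboxylase (DDC) then makes dopamine, which dopamine beta-hydroxylase (DBH) turns into noradrenaline inside dense-core granules. Vesicular monoamine transporters (SLC18A1, SLC18A2) load these granules against a proton gradient, the granins CHGA and CHGB help to build them, the noradrenaline transporter (SLC6A2) takes released transmitter back up and monoamine oxidase A (MAOA) degrades it. Neuroblastoma arises from the sympathoadrenal lineage and is known in the clinic for releasing catecholamines and their breakdown products.

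Total counts were 43687828 to 64715535 per library. Over all genes the replicate 1 libraries stood closest to the opposite label. Measured as chi-square of the counts averaged over genes, the library labelled CR31B replicate 1 lay at 9.47 to 17.3 from DMSO replicates 2 to 4 and at 94.5 to 144 from CR31B replicates 2 to 4. The one labelled DMSO replicate 1 lay at 8.04 to 20.8 from CR31B replicates 2 to 4 and at 88.9 to 109 from DMSO replicates 2 to 4. Which libraries, if any, carry an exchanged label cannot be settled from these values. Levels are given as CPM (counts scaled to library size, with TMM factors), or as TPM (scaled to the same total after division by exon length) where genes are compared with each other. Markers of the neuroblast lineage were present, with HAND2 at 998 CPM and GATA3 at 567 CPM over the 8 libraries. The 10 neuroblast markers summed to 6580 to 7250 CPM in the single-end CR31B libraries and 4940 to 5410 CPM in the single-end DMSO libraries, and 9 were called there, 6 higher and 3 lower. Over all genes tested in those libraries 23.8% were called higher and 17.6% lower, which are the shares to set beside each marker count. The 5 markers of brain glia summed to 2.21 to 5.83 CPM per library, with GFAP and OLIG2 at 0. Immune and endothelial markers summed to 1.62 to 2.04 CPM with CR31B and 3.04 to 3.37 CPM with DMSO in the single-end libraries, with CD68 and CD3E at 0, and 2 of 2 tested, PTPRC and CDH5, were called lower. Epithelial markers summed to at most 0.273 CPM. Markers of fibroblast or mesenchymal cells summed to 225 to 261 CPM in the single-end CR31B libraries and 198 to 204 CPM in the single-end DMSO libraries; PRRX1 was at 0, and 1 of the 6 markers tested was called, PDGFRA. The summed Schwann cell markers were 3.83 to 4.43 CPM with CR31B and 6.46 to 8.54 CPM with DMSO in the single-end libraries, with SOX10 at 0. In replicate 1 they were 6.25 CPM in the library labelled CR31B and 3.02 CPM in the one labelled DMSO. The part of these markers in the results below was not tested. For bulk RNA, fewer cells that express a gene and less RNA per cell cannot be told apart.

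The members differed widely in level per length. In the single-end DMSO libraries CHGA was highest with 551 ± 33.2 TPM (SD, n = 3), followed by DBH with 324 ± 77.7 TPM and CHGB with 123 ± 11.5 TPM. These 3 genes ranked 219, 472 and 1739 among 58515 genes with a known length. GCH1 (32.2 ± 9.11 TPM), SLC6A2 (32.1 ± 0.994 TPM), MAOA (20.9 ± 3.85 TPM), DDC (19.2 ± 3.24 TPM) and SLC18A2 (18.8 ± 2.4 TPM) formed a middle group, within which GCH1 and SLC6A2 overlapped, as did MAOA, DDC and SLC18A2. TH, the enzyme that starts the pathway, was lowest of the members with counts, with 3.19 ± 0.4 TPM. DBH thus stood at 77.6 to 146 times the TPM of TH in these libraries. SLC18A1 had 0 counts in all 8 libraries; a floor of 3 counts per library corresponds to 0.0444 to 0.0719 CPM, for counting error only.

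**Figure D1:**
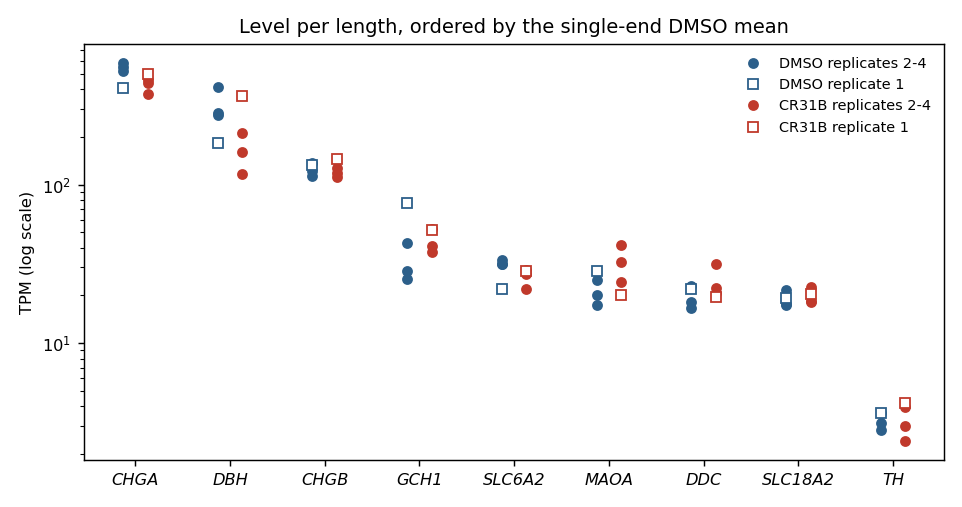
Level per length (TPM, log scale) of the 9 members with counts, in order of the single-end DMSO mean. Filled circles are replicates 2 to 4 and open squares replicate 1 of the DMSO (blue) and CR31B (red) groups. CHGA and DBH stand at the top, and TH lies between 2.42 and 4.18 TPM in every library.

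Of the 10 members, 9 passed the filter on low counts and 1, SLC18A1, did not. Called here means an adjusted p under 0.05 in edgeR's quasi-likelihood test with Benjamini-Hochberg adjustment over all genes tested. With all 8 libraries as labelled and sequencing layout in the model, 0 of 9 members were called, and 0% of 16518 genes; at an unadjusted p under 0.05 there were 0 members and 205 genes by the same tool, and DESeq2 and limma voom also called 0 members. In the 6 single-end libraries 4 of 9 members were called, beside 41.3% of the 16696 genes tested there. DBH, CHGA and SLC6A2 were lower with CR31B (3 of 9, beside 17.6% of all genes) and MAOA was higher (1 of 9, beside 23.8%). In this fit no member passed the threshold at a fold of 2 or more, which 2.68% of all genes did. DBH lay close to that fold, with a log2 fold change of -0.983. It passed a fold of 2 with upper quartile scaling (-1.08) and total count scaling (-1.07). By DESeq2 (-0.994) and with offsets for GC content and length (-0.996) it did not. The single-end groups did not overlap for 3 of the 9 tested members, DBH, CHGA and SLC6A2, beside 52.1% of genes. The share of members called is thus close to the share of all genes, and the median log2 fold change was -0.01 for the members and -0.01 for all genes.

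**Figure D2:**
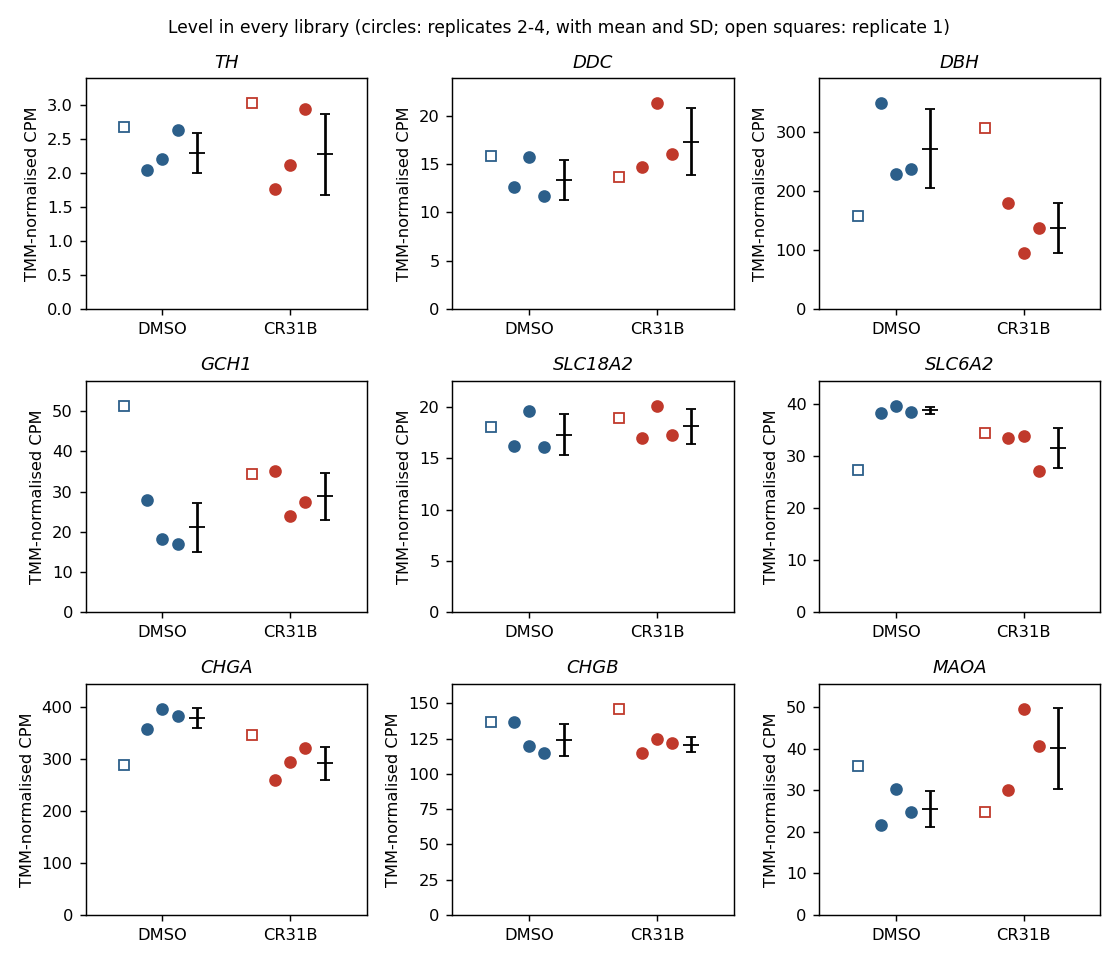
TMM-normalised CPM of each member with counts in every library, with the vertical axes starting at 0. Circles are replicates 2 to 4, with their mean and SD beside them, and open squares are replicate 1; DBH and CHGA are lower with CR31B among the circles, and the squares of DBH stand in the opposite order.

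Among the enzymes that make catecholamines, DBH fell by close to 2-fold in the single-end libraries. DBH (ENSG00000123454; GRCh38, chromosome 9, 133635348 to 133659344, plus strand) had 348, 228 and 237 CPM in DMSO replicates 2, 3 and 4 and 179, 94.7 and 137 CPM in the CR31B libraries with the same numbers. The highest CR31B library lay below the lowest DMSO library, and the CR31B library was lower in every pair. The log2 fold change was -0.98 ± 0.21 (SE; 95% interval -1.46 to -0.51) and the adjusted p 0.00402 by edgeR. By size of fold DBH ranked 120 among the 2933 genes called lower. As labelled in 8 libraries its log2 fold change was -0.53 ± 0.37 with an adjusted p of 0.707 (edgeR). DBH-AS1, a transcript from the opposite strand that shares 3.12% of the DBH exon bases, also fell, from 1.05 ± 0.291 to 0.415 ± 0.204 CPM (SD, n = 3; log2 fold change -1.32 ± 0.33, adjusted p 0.00868, edgeR); it rests on 12 to 85 counts, and the strand setting of the counting is not given in the sources used here, so reads of the pair may not be fully separated.

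TH, DDC and GCH1 did not pass the threshold in the main fit, which is unpaired. TH (ENSG00000180176; chromosome 11, 2163929 to 2171877, minus strand) had 2.05, 2.21 and 2.63 CPM with DMSO and 1.77, 2.12 and 2.94 CPM with CR31B in replicates 2 to 4. The 2 groups overlapped entirely. The fitted difference was -0.01 ± 0.19 on the log2 scale, with a 95% interval of -0.44 to 0.41 and an adjusted p of 0.959 (edgeR), and a change within that interval was not detectable at 93 to 149 counts per single-end library. DDC (ENSG00000132437; chromosome 7, 50458436 to 50565457, minus strand) had 12.6, 15.7 and 11.7 CPM with DMSO and 14.7, 21.3 and 16 CPM with CR31B. Its level was higher with CR31B in each pair, by 0.22, 0.45 and 0.45 on the log2 scale, yet 1 DMSO library exceeded 1 CR31B library. The fitted log2 difference of 0.38 ± 0.15 had an adjusted p of 0.0604, and with replicate number as a block 0.37 with an adjusted p of 0.00112 (edgeR).

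GCH1 (ENSG00000131979; chromosome 14, 54842008 to 54902852, minus strand), the entry enzyme of BH4 synthesis, also had more RNA with CR31B in each pair. Its levels were 28, 18.3 and 16.9 CPM with DMSO and 35.1, 23.8 and 27.5 CPM with CR31B in replicates 2 to 4. Replicate 2 was highest in both groups, so the groups overlapped, and the pairs differed by 0.32, 0.38 and 0.71 on the log2 scale. The log2 difference was 0.45 ± 0.19 with an adjusted p of 0.0774 without the block and 0.46 with an adjusted p of 0.000461 with it (edgeR). In the main edgeR fit DDC and GCH1 are therefore called with the block and not without it. Other unpaired fits differed for DDC. It was called by DESeq2 (adjusted p 0.0162) and with offsets for GC content and length (adjusted p 0.0232, edgeR). GCH1 was not called in those fits (adjusted p 0.22 by DESeq2 and 0.104 by edgeR). Whether the numbers pair these libraries was not established.

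Of the granule genes, CHGA fell and CHGB did not pass the threshold. CHGA (ENSG00000100604; chromosome 14, 92923080 to 92935293, plus strand), which encodes chromogranin A, had 358, 396 and 383 CPM with DMSO and 259, 294 and 321 CPM with CR31B. All 3 CR31B libraries lay below all 3 DMSO libraries. The log2 fold change was -0.38 ± 0.08 (95% interval -0.55 to -0.21), a fall of 1.3-fold, with an adjusted p of 0.00253 (edgeR). CHGB (ENSG00000089199; chromosome 20, 5911430 to 5925361, plus strand), which encodes chromogranin B, had 137, 120 and 115 CPM with DMSO and 115, 125 and 122 CPM with CR31B. The groups overlapped, pairs differed in direction, and the log2 difference of -0.04 ± 0.07 had a 95% interval of -0.195 to 0.11 and an adjusted p of 0.677 (edgeR). The difference between the 2 granins was not itself tested. The ratio of CHGA to CHGB in TPM was 3.81, 4.8 and 4.89 with DMSO and 3.3, 3.43 and 3.85 with CR31B.

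The vesicular transporter of these cells was SLC18A2 (ENSG00000165646; chromosome 10, 117241073 to 117279430, plus strand), since SLC18A1 (ENSG00000036565; chromosome 8, 20144855 to 20183206, minus strand) had no counts. SLC18A2 had 16.2, 19.6 and 16.1 CPM with DMSO and 17, 20.1 and 17.3 CPM with CR31B. The groups overlapped, with a log2 difference of 0.07 ± 0.1, a 95% interval of -0.15 to 0.29 and an adjusted p of 0.618 (edgeR); under upper quartile or total count scaling, and with offsets for GC content and length, the sign was negative. Of its exon bases, 56.1% are also exon on the opposite strand, in PDZD8 (154 CPM) and 2 genes under 1 CPM (AL391988.1 and AL731557.1), so the SLC18A2 level is uncertain where strand was not used in counting.

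SLC6A2 (ENSG00000103546; chromosome 16, 55655604 to 55706192, plus strand), the transporter that returns noradrenaline to the cell, fell slightly. It had 38.4, 39.7 and 38.6 CPM with DMSO and 33.6, 34 and 27.2 CPM with CR31B in replicates 2 to 4. The DMSO values were tightly grouped and all lay above the CR31B values. The log2 fold change was -0.3 ± 0.08 (95% interval -0.48 to -0.11) with an adjusted p of 0.0154 (edgeR). Without DMSO replicate 3 the adjusted p was 0.0506 and without DMSO replicate 4 it was 0.0505 (edgeR). Of the SLC6A2 exon bases 17.9% are shared with AC136621.1 on the same strand, a gene with 5.72 CPM, so its level is less certain.

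MAOA (ENSG00000189221; chromosome X, 43654907 to 43746824, plus strand), which degrades noradrenaline and serotonin at the mitochondrial surface, rose 1.57-fold. Its levels were 21.6, 30.3 and 24.7 CPM with DMSO and 30.1, 49.6 and 40.6 CPM with CR31B. The CR31B library was higher in each pair, by 0.48, 0.71 and 0.72 on the log2 scale, while the highest DMSO library, replicate 3, just exceeded the lowest CR31B library, replicate 2. The fitted log2 fold change was 0.65 ± 0.17 (95% interval 0.28 to 1.02) with an adjusted p of 0.00963 (edgeR). The TPM ratio of DBH to MAOA was 23.6, 11 and 14.1 with DMSO and 8.71, 2.79 and 4.95 with CR31B. The ratio was lower with CR31B in each of these pairs, and in replicate 1 it was 18 in the library labelled CR31B and 6.43 in the one labelled DMSO.

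**Figure D3:**
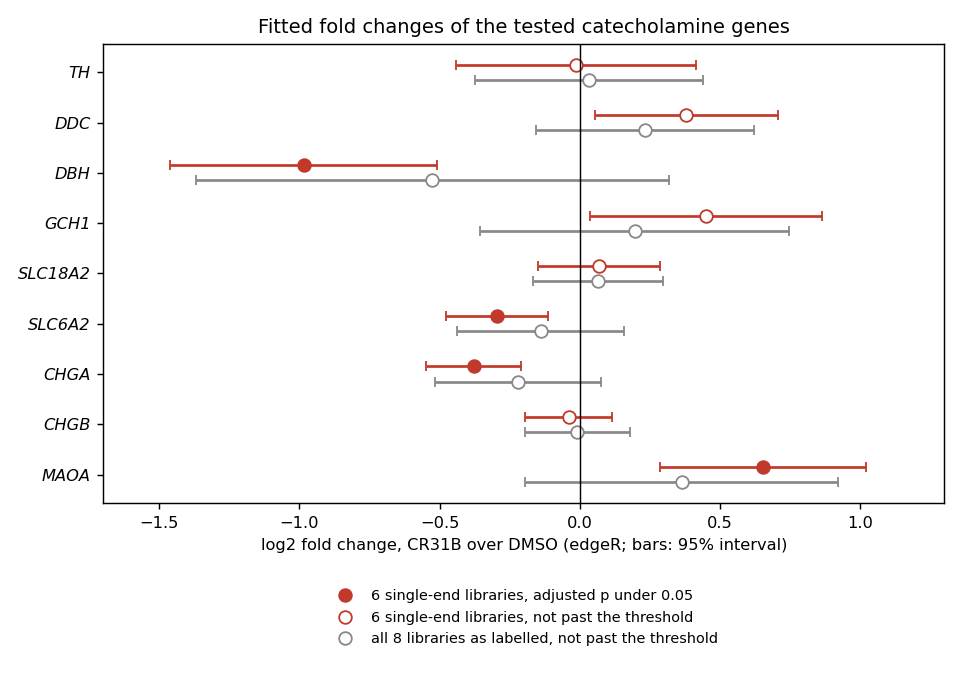
Fitted log2 fold changes, CR31B over DMSO, of the 9 tested members with 95% intervals, from the 6 single-end libraries (red) and from all 8 libraries as labelled (grey); filled points have an adjusted p under 0.05. DBH, SLC6A2 and CHGA lie below 0 and MAOA above in the single-end libraries, and every grey interval spans 0.

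Replicate 1 ran the other way for most of these genes. Among the 9 tested members, 7 had the same direction in pairs 2, 3 and 4, and 6 of those 7 had the opposite direction in pair 1, the exception being SLC18A2 (0.06 on the log2 scale in pair 1). In replicate 1 DBH had 306 CPM in the library labelled CR31B and 158 CPM in the library labelled DMSO, a log2 difference of 0.95. The first value lies within the range of the single-end DMSO libraries and the second within that of the single-end CR31B libraries. MAOA showed the same exchange of ranges, with 24.8 CPM in the library labelled CR31B and 35.9 CPM in the one labelled DMSO. For CHGA the values were 345 and 288 CPM, for SLC6A2 34.6 and 27.3 CPM, for DDC 13.7 and 15.8 CPM and for GCH1 34.3 and 51.3 CPM, in the same order of labels. The GCH1 level of the library labelled DMSO replicate 1 was above that of all other libraries. TH (3.03 and 2.68 CPM), CHGB (146 and 137 CPM) and SLC18A2 (18.9 and 18.1 CPM) differed by at most 0.174 on the log2 scale.

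The difference between layouts was tested as an interaction of treatment with layout in the 8 libraries, where the paired-end layout has 1 library per group and the spread comes from the single-end libraries. It was called for 5 of 9 members, beside 42.5% of all genes. The interaction was 1.94 ± 0.43 on the log2 scale for DBH (adjusted p 0.00457), 0.64 ± 0.15 for CHGA (0.00653), 0.64 ± 0.17 for SLC6A2 (0.0113), -1.18 ± 0.34 for MAOA (0.0169) and -1.03 ± 0.37 for GCH1 (0.0445, edgeR). A positive value means a higher CR31B to DMSO ratio in replicate 1 than in replicates 2 to 4. Layout and replicate 1 are the same libraries and cannot be told apart. Every direction given for CR31B here rests on the labels of replicates 2 to 4.

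**Figure D4:**
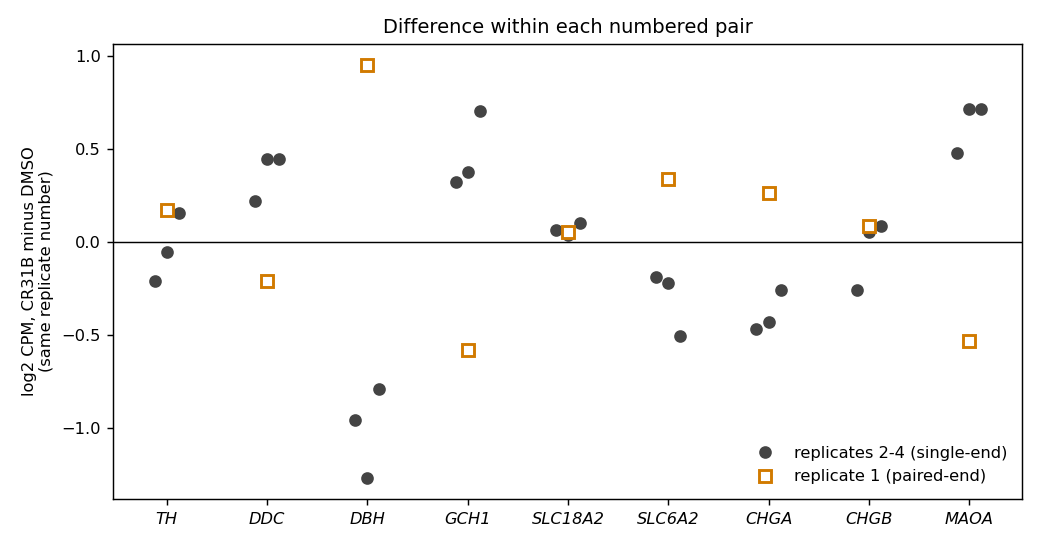
Difference in log2 CPM, CR31B minus DMSO, within each numbered pair for the 9 members with counts. Filled circles are replicates 2 to 4 and open orange squares replicate 1. For DBH the circles lie at -0.96, -1.27 and -0.79 and the square at 0.95; for SLC18A2 all 4 points lie close to 0.

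To place the members, 9 lists of related genes were counted in the single-end libraries. They hold 130 genes, of which 97 were tested and 55 called (56.7%, beside 41.3% of all genes), 31 higher and 24 lower. The split was 25 higher and 38 lower with upper quartile scaling, and 25 higher and 33 lower with total count scaling. With replicate number as a block 67 were called, 35 higher and 32 lower, beside 8540 of all 16696 genes (6901 without the block). As labelled in 8 libraries 0 of them were called. The lists were written with earlier results of these data known, and their counts are descriptions.

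Genes of BH4 supply and late synthesis other than GCH1 were lower where they were called. Of the 9 tested 5 were called lower and 0 higher, beside 17.6% and 23.8% of all genes. The median log2 fold change was -0.26 against -0.01 for all genes. With the replicate block 7 were lower. PCBD1, which takes part in recycling BH4, had -0.5 ± 0.1 (18.5 to 13.1 CPM from DMSO to CR31B). SPR and PTS, the 2 enzymes of BH4 synthesis after GCH1, had -0.48 ± 0.1 and -0.25 ± 0.08; PTS was not called with offsets for GC content and length. PNMT, which would turn noradrenaline into adrenaline, stood at 0.731 CPM and was not called, and CYB561, the electron carrier that serves DBH in granules, at 0.134 CPM. The adjusted p was 0.00213 for PCBD1, 0.00369 for SPR and 0.0289 for PTS (edgeR).

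Among the other genes of breakdown, 2 of 7 tested were called higher and 3 lower, beside 23.8% and 17.6% of all genes. ALDH3A2, an aldehyde dehydrogenase, was higher by 0.19 ± 0.06 on the log2 scale (adjusted p 0.0383, edgeR), but was not called with upper quartile or total count scaling, nor with offsets for GC content and length. Other aldehyde-handling enzymes, AKR1B1, ALDH2 and ALDH7A1, were lower, with -0.34, -0.34 and -0.28; with offsets for GC content and length ALDH2 had -0.56. MAOB, the second monoamine oxidase, averaged 0.00243 CPM, below the floor of 3 counts, so nearly all monoamine oxidase counts were from MAOA.

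Granule proteins were divided. Of 17 tested, 4 were called higher and 2 lower, beside 23.8% and 17.6% of all genes, and the list median was 0. The split was 4 higher and 6 lower with upper quartile scaling, 4 and 4 with total counts, and 7 and 4 with the replicate block. The secretogranin SCG2 rose from 109 to 214 CPM (log2 fold change 0.97 ± 0.12, adjusted p 0.000146, edgeR), VGF rose from 119 to 285 CPM (1.25 ± 0.18, adjusted p 0.000364) and the synaptotagmin SYT4 rose from 63.9 to 96.2 CPM (0.59 ± 0.05, adjusted p 1.59e-05). PCSK1N, a granin-like inhibitor of a prohormone convertase, fell by 0.41 ± 0.07 (adjusted p 0.00102). CHGA and SCG2, both cargo of dense-core granules, thus moved in opposite directions. Among 4 tested peptides of granules, ADCYAP1 rose by 0.73 ± 0.13 (adjusted p 0.0014, edgeR), and GAL, which encodes galanin, had -0.23 ± 0.09 (adjusted p 0.0706; 0.00913 with replicate number as a block). VIP, a neuropeptide, had 0.7 ± 0.5 without the block and 0.8 with an adjusted p of 0.000269 with it (edgeR). NPY and TAC1 were at 0.

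Of 16 tested subunits and accessory proteins of the proton pump that energises SLC18A2, 8 were called lower and 2 higher. Over all genes 17.6% were called lower and 23.8% higher. The list median was -0.16. ATP6V0E1 fell from 57.5 to 33.5 CPM (-0.78 ± 0.08, adjusted p 3.43e-05, edgeR), ATP6V0E2 by 0.58 ± 0.08 and ATP6V1G1 by 0.36 ± 0.06. The higher calls, ATP6V1C1 and ATP6V1H, were not called with upper quartile or total count scaling, and ATP6V1C1 also not with offsets for GC content and length. ATP6V0C had 0.035 CPM, and 72.1% of its exon bases also belong to same-strand neighbours, which makes its count uncertain.

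Of the receptors and other amine transporters, 6 of 20 were tested. ADRA2A, the alpha-2A adrenoceptor through which noradrenaline limits its own release, fell 2.08-fold from 35.3 to 17 CPM (log2 fold change -1.05 ± 0.14, adjusted p 0.000209, edgeR). ADRA2C, a related receptor, rose from 18.9 to 23.5 CPM (0.32 ± 0.08, adjusted p 0.00879). SLC29A4, a low-affinity monoamine transporter, fell from 114 to 88 CPM (-0.38 ± 0.06, adjusted p 0.000718). The dopamine transporter SLC6A3 stood at 1.04 CPM and the serotonin transporter SLC6A4 at 0.0413 CPM.

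**Figure D5:**
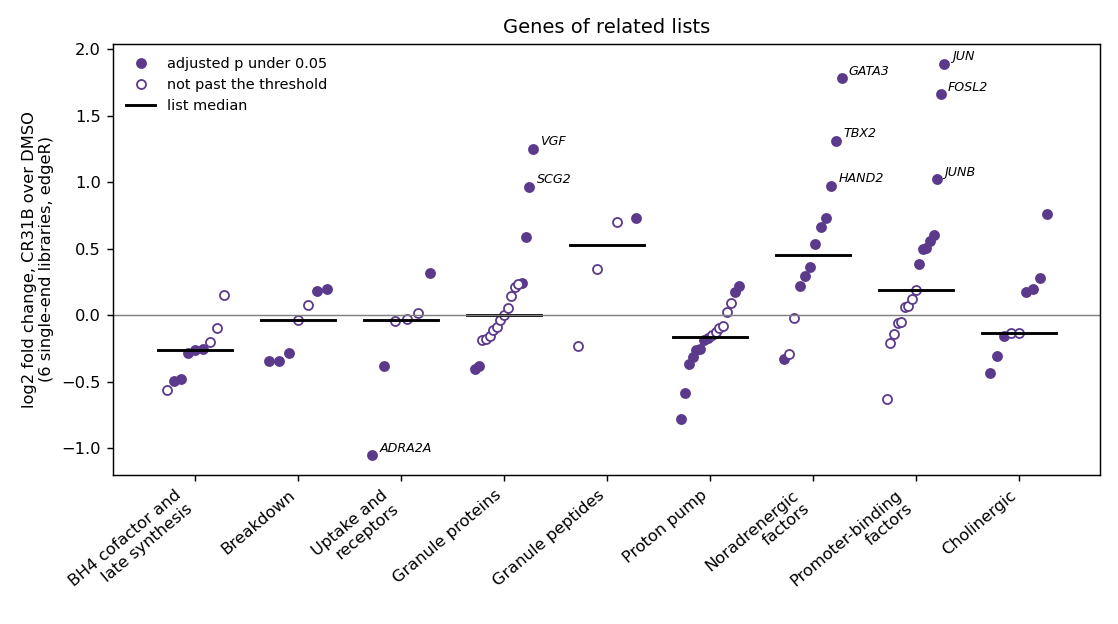
Log2 fold changes, CR31B over DMSO, in the 6 single-end libraries for the tested genes of 9 related lists; each point is a gene, filled where the adjusted p is under 0.05, the black bar is the list median, and genes beyond 0.95 in size are named. Noradrenergic factors lie mostly above 0 and the medians of the BH4 and proton pump lists lie below it.

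Of the transcription factors of the noradrenergic lineage, 9 of 12 tested were called higher and 1 lower in the single-end libraries. The shares over all genes there were 23.8% higher and 17.6% lower. GATA3 rose from 259 to 886 CPM (1.78 ± 0.07, adjusted p 5.07e-07) and HAND2 from 678 to 1330 CPM (0.97 ± 0.06, adjusted p 1.76e-06, edgeR). The gene called lower there was PHOX2A, a homeodomain factor that binds the DBH promoter, with -0.33 ± 0.08 (512 to 408 CPM, adjusted p 0.00734, edgeR). INSM1, a zinc finger factor of neuroendocrine cells, had -0.29 with an adjusted p of 0.149, but was called lower with the replicate block (-0.3, adjusted p 0.00223) and with upper quartile scaling (-0.39, adjusted p 0.0485, edgeR). Of a list of CREB/ATF, AP-1, SP, EGR and NR4A factors and the repressor REST, 8 of 17 tested were called higher and 0 lower, beside the same shares. Among those called higher were CREB1 (0.51 ± 0.05, adjusted p 1.85e-05), SP3 (0.56 ± 0.05, adjusted p 1.19e-05) and FOSL2 (1.66 ± 0.09, adjusted p 7.81e-07, edgeR). With upper quartile and total count scaling CREM was called lower. REST, a repressor of neuronal genes, rose by 0.6 ± 0.09 (46 to 69.7 CPM, adjusted p 0.000317, edgeR). With offsets for GC content and length the log2 fold changes were smaller, at 0.26 for CREB1, 0.35 for SP3 and 0.38 for REST, and all 3 were still called.

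Genes of the cholinergic type were also expressed. CHAT, which makes acetylcholine, had 68.1 CPM with DMSO and 82.6 CPM with CR31B (0.28 ± 0.06, adjusted p 0.0026, edgeR), and the vesicular acetylcholine transporter SLC18A3 had 40.6 and 46.6 CPM (0.2 ± 0.06, adjusted p 0.0151; not called with upper quartile or total count scaling). Of 9 tested cholinergic genes 4 were called higher and 3 lower, beside 23.8% and 17.6% of all genes. With upper quartile or total count scaling 2 were called higher and 4 lower. In the main fit nicotinic receptor subunits were called in both directions, with CHRNA3 higher (0.17, adjusted p 0.0186, edgeR) and CHRNA7, CHRNB2 and CHRNB4 lower.

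RefSeq promoter windows (GRCh38.p14) were matched for 5 of the 10 members, DBH, DDC, SLC18A2, CHGA and MAOA, and are described over the 250 bases before the start. Both strands were searched. The full cyclic AMP response element was TGACGTCA, and its core, which the full element contains, was TGACGT. The AP-1 site was searched as TGANTCA (6.57% of windows) and the GC box as GGGCGG. The TATA box was searched as TATAAA, which 10.7% of windows held. The E-box bound by HAND2 was searched as CATCTG, which 12.2% of windows held. A GATA site was searched as AGATAA (9.17% of windows). For homeodomain factors the search used TAATTA (4.35% of windows). The full element was found in CHGA and SLC18A2 and in 1.65% of 35116 windows of the same length, and the core also in DBH and in 7.1% of windows. MAOA held 4 GC boxes, SLC18A2 held 3 and CHGA held 1, against 42.6% of windows with any. The other motifs gave no match in these members' windows. The stretches below show the full element in CHGA and SLC18A2, the core in DBH and a GC box in MAOA, to let their sequences be compared; DDC had no match in either of its windows. They were picked with the values known, and nothing on direction is read from them. Each is 30 bases, plus strand, 5′ to 3′; capitals mark the response element or its core and, for MAOA, the GC box nearest to the start, which reads as its complement. A match is a description of the sequence only.

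DBH, chr9:133636170-133636199, core beginning 181 bases before the start: aactcccactgaTGACGTccatgtgtcatt
CHGA, chr14:92923085-92923114, element beginning 54 bases before the start: ggcggcaccgcTGACGTCAtttccggggtc
SLC18A2, chr10:117241055-117241084, element beginning 48 bases before the start: ccctccggccgTGACGTCAgagccggacgg
MAOA, chrX:43656231-43656260, GC box beginning 56 bases before the start: gaaggatcggctCCGCCCccgggctccccg

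In GENCODE 29 all 30 bases of the DBH, CHGA and MAOA stretches, and 12 of the SLC18A2 stretch, are exon bases of annotated transcripts of the same gene. The counts per gene do not show which start was used.

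The genes whose log2 CPM followed the members most closely over the 8 libraries, among genes with a mean of at least 5 CPM, were found by Pearson's r as a description. For DBH they were TMEM9B (0.995), ERCC8 (0.994) and PPP2R2D (0.993), whose own log2 fold changes in the single-end libraries were -0.22, -0.33 and -0.36. For CHGA they were NLN (0.991), IQCG (0.98) and AARS2 (0.966). For TH they were DFFA (0.952), TMEM67 (0.905) and P3H4 (0.881), all with fold changes near 0. These points share the same 8 libraries, and the measure ignores the size of a change.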

How the data were processed

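RNA of 8 IMR32 libraries was counted per gene. The authors deposited raw counts per Ensembl gene, without normalisation, per the file headers and values; the submitters' processing notes name FastQC 0.11.7, STAR 2.7.2b, edgeR 3.36.0, limma 3.50.3 and the build GRCh38, with no roles, and the counting tool, annotation and strand setting are not given in the sources used here. The labels name a kit for small RNA libraries, 250 ng input, 15 PCR cycles and 75 read cycles. Columns were assigned by name; the header of CR31B replicate 4 lacks its first letter. Of 58787 identifiers 58515 were in GENCODE 29, which gave positions and exon lengths, and all list symbols matched.

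For these deposited counts the test was the quasi-likelihood test of edgeR 4.0.16 under R 4.3.3 (glmQLFit, glmQLFTest, two-sided, filterByExpr, TMM, Benjamini-Hochberg over all genes, threshold 0.05), in the 6 single-end libraries and in all 8 with layout as covariate. Within pairs, log2 CPM used 1 as prior count. P-values measure the spread between these libraries. Without molecular identifiers counts include PCR duplicates, so floors cover counting error only. Members and lists were chosen with earlier results of these data known. All members are named; of each list, up to 4 genes with the lowest adjusted p at 1 CPM or more and genes needed to read the pathway; SCG2 beside CHGA, PHOX2A, REST and CREM were set out after their values were seen.

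Same-numbered single-end libraries deviated together from their group means (r of 0.206, 0.384 and 0.157 across genes for replicates 2, 3 and 4). Libraries with different numbers were not compared in this way, so the values do not establish that the numbers pair them. Calls with the replicate block depend on that pairing. The smallest mean chi-square per gene between any 2 libraries was 7.28, against 1 for 2 draws from one library. The fits were tested on simulated data. Alternatives were other scalings, filters, DESeq2 1.42.0, limma voom 3.58.1, a replicate block, offsets for GC content and length, and leaving out each library.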

Additional observations from a re-analysis of the deposited data

Results flagged for a closer look

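The CR31B to DMSO difference was not the same in replicate 1 and in replicates 2 to 4 for 5 members by the interaction test, with adjusted p of 0.00457 for DBH, 0.00653 for CHGA, 0.0113 for SLC6A2, 0.0169 for MAOA and 0.0445 for GCH1 (edgeR, Benjamini-Hochberg). The same test called 42.5% of all genes. Layout and replicate 1 are the same libraries.

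In 2 of 18 group values of the members, 1 library stood far from the others that carry its label by Dixon's ratio, which divides its distance from the next value by the whole spread; by chance about 0.9 would (1 in 20). Both concern SLC6A2. In the DMSO group the ratio was 0.895, with replicate 1 lowest at 27.3 CPM, and in the CR31B group it was 0.869, with replicate 4 lowest at 27.2 CPM.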

How the results depend on the processing

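In the single-end libraries DBH, CHGA and MAOA kept their direction and their call under all 10 alternative settings and in all 6 fits that left out a library; SLC6A2 did too, except without DMSO replicate 3 or DMSO replicate 4. The number of members called was 4 to 6 over the settings, beside 6564 to 8540 of all genes. With a library left out it was 3 to 5, beside 5582 to 6727 of all genes. With the replicate block 6 members were called, DDC and GCH1 being added, and the block changed no other member's call. Over all 16696 genes the block raised the number called from 6901 to 8540. DDC was also called by DESeq2 (0.37, adjusted p 0.0162), with no filter (adjusted p 0.000546), with offsets for GC content and length (0.43, adjusted p 0.0232), and without CR31B replicate 2 (adjusted p 0.0209) or DMSO replicate 3 (adjusted p 0.0264, edgeR). GCH1 was also called with no filter (adjusted p 5.42e-07) and with those offsets and the block together (adjusted p 0.000369, edgeR). It was called without CR31B replicate 3 (adjusted p 0.0287) or DMSO replicate 2 (0.71, adjusted p 0.0044, edgeR). The fit with no filter gave DBH an adjusted p of 1.98e-59 at -0.994, against 0.00402 at -0.983 in the main fit (edgeR). Its p-values therefore cannot be set beside those of the other fits, and its added calls of DDC and GCH1 carry little weight. The cause of these differences between settings was not tested.

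Values near 0 changed sign. SLC18A2 was -0.0268 with upper quartile scaling, -0.00951 with total counts, -0.0373 with the offsets, -0.0366 with offsets and replicate block, and between -0.0135 and 0.161 with a library left out. TH ranged from -0.228 to 0.138 and CHGB from -0.0877 to 0.0382 with a library left out; TH was 0.138 without CR31B replicate 2, 0.0324 without CR31B replicate 3 and 0.0957 without DMSO replicate 4, and CHGB 0.0382 without DMSO replicate 2.

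In all 8 libraries as labelled, 0 members and 0 related genes were called under each scaling, filter, tool and model, the replicate block included. Without replicate 1, 4 members and 55 related genes were called. Leaving out single libraries gave 0 to 4 members and 0 to 55 related genes, the calls appearing without CR31B replicate 1 or DMSO replicate 1. With layout in the model, the replicate 1 library that then remains is the only paired-end one and does not inform the treatment estimate. Those fits therefore repeat the one without replicate 1 (DBH -0.985 and -0.982, against -0.983) and are no separate result. TH was -0.00796 with upper quartile scaling, -0.00142 with total counts, -0.0149 without replicate 1, and -0.11 to 0.149 with a library left out (-0.0167 and -0.0139 without a replicate 1 library, -0.11 without CR31B replicate 4, -0.00802 without DMSO replicate 2). CHGB ranged from -0.0414 to 0.0559 with a library left out, being 0.0213 without CR31B replicate 2 and 0.0559 without DMSO replicate 2. The interaction was called for 4 to 6 members over the settings, and for 42.5% of all genes in the main fit. The precision for TH rests on 93 to 171 counts per library.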
